A study of Arabidopsis thaliana with 4 samples.

Results

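AT1G47400 and AT3G13610 are a pair of Arabidopsis genes linked to iron deficiency, each read by 1 probe set, and they are 2 of 13286 genes to which the annotation gives a probe set of their own. AT1G47400 encodes IRON MAN 1 (IMA1), and AT3G13610 encodes feruloyl-CoA 6'-hydroxylase (F6'H1). Both were picked from measured values: AT1G47400 because it was high in GR-REV over wild type, and AT3G13610 because it was high with dexamethasone over mock. Those differences are therefore given as descriptions with no p-value.

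Transcript levels were measured on 4 Affymetrix ATH1 arrays, 1 for each of 4 flasks of seedlings. GR-REV dexamethasone seedlings carried the transgene and received 50 µg/ml dexamethasone in 0.1% ethanol for 1 h, and GR-REV mock seedlings carried it and received ethanol alone. Wild type dexamethasone and wild type mock seedlings were untransformed Landsberg erecta (Ler) given the same treatments. GR-REV expresses REVOLUTA, an HD-ZIP III transcription factor, from the constitutive 35S promoter, fused at its amino terminus to the steroid-binding part of the glucocorticoid receptor and altered so that the microRNA cannot recognise it. Steroid binding lets such a fusion enter the nucleus. All 4 flasks were of the same age, 10 days in shaken liquid culture with MS salts and glucose under constant light, and whole seedlings were sampled, so fewer cells of a type and less RNA per cell cannot be told apart. How many independent GR-REV lines were used is not given in the sources used here, and no REV probe set was analysed here.

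For the GR-REV arrays, titles and treatment protocols give one treatment and source names the other. Groups follow titles and protocols. With the source names, every difference between the 2 GR-REV arrays changes sign. The mean difference of GR-REV from wild type over both treatments stays as it is. Differences from wild type within a treatment change, as does a fit with treatment as a term. The values are MAS5 signals, a linear intensity per probe set. The 2% trimmed mean lay between 500.05 and 500.06 on all arrays, medians lay between 156 and 181, and wild type mock had the largest share of probe sets above the floor used here, 62.9% against 58.9% to 59.2%. The floor is a signal of 91.4, the 40th percentile, below which signals count as background. Every array had its own fluidics module, which cannot be told apart from its group.

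Plants short of iron turn on a cascade of bHLH transcription factors. IMA peptides act early in it: they bind the BRUTUS-type ubiquitin ligases that otherwise degrade bHLH factors, so that the factors stay active and uptake genes are transcribed. In roots the same response makes coumarins, phenolic compounds that are secreted to mobilise ferric iron. F6'H1, an iron- and 2-oxoglutarate-dependent dioxygenase, makes the hydroxylated feruloyl-CoA from which the coumarin scopoletin forms.

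AT1G47400 was high in the GR-REV line under either treatment. Its signal was 2007 with dexamethasone and 2074 with mock in GR-REV, against 235 in wild type dexamethasone and 374 in wild type mock. Both GR-REV arrays lay above both wild type arrays, and the nearest pair was 5.37-fold apart. Without overlap of this kind, GR-REV was above wild type in 13.8% of all 22746 probe sets and at least 2-fold above in 1.12%. The difference was 8.52-fold between the dexamethasone arrays and 5.55-fold between the mock arrays. The mean over both was 2.78 ± 0.26 on the log2 scale (SE, 2 GR-REV and 2 wild type arrays, limma), or 6.88-fold, the 35th highest of 22746 probe sets. The gene was picked for this difference, so neither its SE nor its rank is a test of it. Whichever label of the GR-REV arrays holds, the flask of that line without steroid had a signal of at least 2007.

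**Figure D1:**
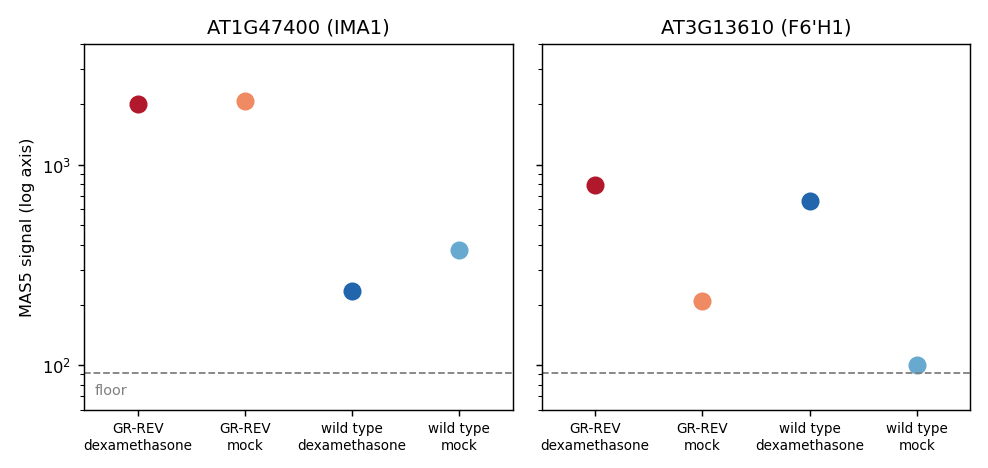
MAS5 signal (log axis) of AT1G47400 and AT3G13610 on each of the 4 arrays; each point is 1 array and the dashed line is the floor of 91.4. AT1G47400 is at 2007 and 2074 on the GR-REV arrays and at 235 and 374 on the wild type arrays, whereas AT3G13610 is higher on each dexamethasone array than on either mock array and lies just above the floor in wild type mock.

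Dexamethasone was not the contrast that picked AT1G47400, and there it passed no test. The GR-REV pair was 1.03-fold apart and the wild type pair 1.59-fold, with the lower signal under dexamethasone in each, or -0.05 and -0.67 as log2 differences. Over both genotypes the difference was -0.36 ± 0.20 (SE, 2 dexamethasone and 2 mock arrays), lower in 2 of 2 pairs, with an adjusted p of 0.539 in limma with genotype as a term.

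AT3G13610 went the other way round, apart by treatment in both genotypes. Its signal was 796 in GR-REV dexamethasone and 663 in wild type dexamethasone, against 209 in GR-REV mock and 100.3 in wild type mock. Both dexamethasone arrays lay above both mock arrays, and the nearest pair was 3.17-fold apart, a gap of 2-fold or more that 0.0396% of all probe sets showed in this direction and 0.0615% in the other. Dexamethasone over mock was 3.81-fold in GR-REV and 6.61-fold in wild type, or 1.93 and 2.72 as log2 differences, the 33rd and the second highest of 22746 probe sets. The wild type mock signal was only 1.10 times the floor, so the size of the wild type difference rests on a low value. With the treatments of the source names the GR-REV difference is -1.93, and the mean over both genotypes is 0.40 in place of 2.33.

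Genotype was not the contrast that picked AT3G13610. Its signal in GR-REV was 1.20-fold higher than in wild type between the dexamethasone arrays and 2.08-fold higher between the mock arrays, and the groups of 2 overlapped. By the titles it was thus higher in 2 of 2 pairs. By the source names, GR-REV was lower with dexamethasone (209 against 663) and higher with mock (796 against 100.3). The mean difference was 0.66 ± 1.02 on the log2 scale (SE, 2 GR-REV and 2 wild type arrays), with an adjusted p of 0.813 in limma. The spread there holds the treatment difference. With treatment as a term it was 0.66 ± 0.27 with an adjusted p of 0.212.

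The members had different orders over the arrays. AT1G47400 was highest in GR-REV mock and lowest in wild type dexamethasone, 8.81-fold apart, and AT3G13610 was highest in GR-REV dexamethasone and lowest in wild type mock, 7.94-fold apart. In wild type, dexamethasone went with a higher AT3G13610 and a lower AT1G47400. GR-REV minus wild type in the response to dexamethasone was 0.62 for AT1G47400 and -0.79 for AT3G13610 on the log2 scale, which 1 array per group does not allow to be tested.

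**Figure D2:**
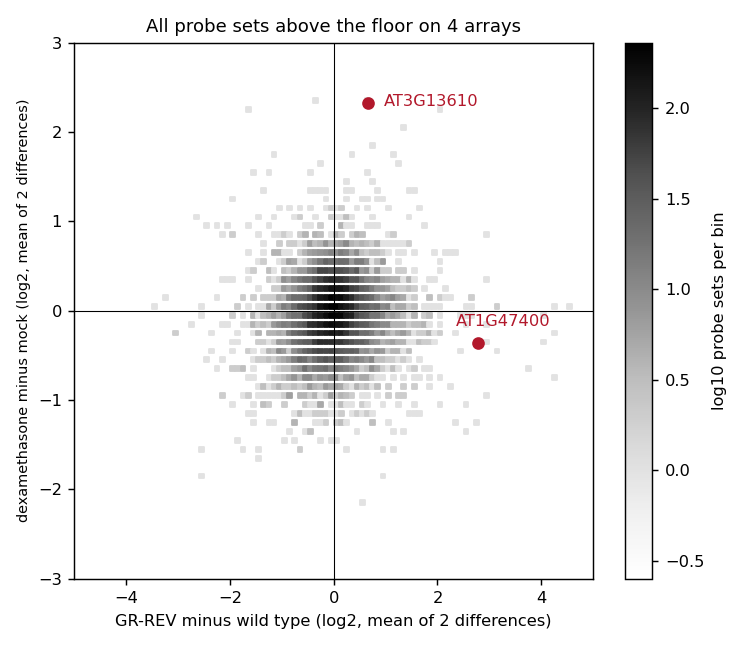
Each of the 12252 probe sets whose 4 signals all passed the floor, placed by its GR-REV minus wild type difference (x axis) and its dexamethasone minus mock difference (y axis), both on the log2 scale, as counts in squares of 0.1, darker for more probe sets. AT1G47400 lies far to the right at 2.78 and close to 0 in height at -0.36, and AT3G13610 lies at the top at 2.33 and near the middle across at 0.66.

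Other genes of iron supply and coumarin synthesis were read from 6 lists of 91 genes in all, without the 2 members, of which 23 genes had 24 probe sets. No gene of iron storage had one, only 1 of 31 uptake and transport genes did, and IRT1, FRO2 and FIT were not analysed here. The annotation used listed no gene for 8730 probe sets, so genes without one here may still be on the array. This holds for the marker lists below too. Of the 24 probe sets, 5 were at the floor on all arrays. In GR-REV over wild type limma called 0 of the 17 tested, against 1.77% of all probe sets. At an unadjusted p under 0.05 there were 5 of 17, against 16.4% of all. The count by the fold rule over all arrays was added after seeing the data. By it, 2 of 24 were at least 2-fold higher in every GR-REV array than in every wild type array, against 1.12% of all. In the other direction 0 were 2-fold lower throughout, against 0.633%. With no fold asked for, both GR-REV arrays lay above both wild type arrays in 7 of 24, against 13.8%, and below in 3 of 24, against 14.9%; the shares of all include probe sets at the floor on all arrays. Of the 7, 5 were transcription factors of the first list. The median difference of the 24 was 0 in the dexamethasone arrays and 0 in the mock arrays, as it was for all probe sets. Pairs of signals under the floor give exactly 0, so these medians cannot show a shift. In the dexamethasone arrays 10 of 24 were above 0 and 6 below, and in the mock arrays 11 and 8.

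The 2 that passed the fold rule were PYE and AT5G05250. PYE (POPEYE) encodes a bHLH factor that is induced by iron deficiency and represses genes of iron storage and transport. Its signal was 486 with dexamethasone and 547 with mock in GR-REV, against 123 in wild type dexamethasone and 184 in wild type mock. That the GR-REV arrays did not overlap the wild type arrays follows from the fold rule. The difference was 1.77 ± 0.28 (SE, 2 against 2 arrays), higher in 2 of 2 pairs, with an adjusted p of 0.0510 in limma, just above the threshold of 0.05. It passed with division by the median, the floor value added, quantile normalization, no intensity trend and treatment as a term. With neither other floor did it pass. Fits with an array left out have 1 array in a group and are not counted here.

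AT5G05250 encodes a small protein of unknown role whose transcript is known from lists of iron-deficiency genes. Its signal was 1065 with dexamethasone and 1406 with mock in GR-REV, against 92.4 in wild type dexamethasone and 277 in wild type mock. This order of the 4 arrays is that of AT1G47400, and wild type dexamethasone is again the lowest, here next to the floor. The difference was 2.94 ± 0.52 (SE, 2 against 2 arrays), higher in 2 of 2 pairs, with an adjusted p of 0.0644 in limma. With all arrays kept, it was called with division by the median, a floor at the 60th percentile, the floor value added and treatment as a term. It was not called with quantile normalization, a floor at the 25th percentile or no intensity trend. Fits with an array left out are again not counted.

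Among the bHLH factors upstream, bHLH121, an activator of the cascade, came closest to the fold rule. Its signal was 768 with dexamethasone and 487 with mock in GR-REV, against 261 in wild type dexamethasone and 254 in wild type mock. The nearest pair was 1.87-fold apart, and the difference of 1.25 ± 0.28 (SE) had an adjusted p of 0.106 in limma. Among alternatives that kept all arrays, it was called only with treatment as a term. bHLH121 (AT3G19860) lies on chromosome 3, as do PYE and bHLH34 (AT3G23210). bHLH34 averaged 1.06-fold higher in GR-REV, and whether position on the chromosome played a part was not tested.

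bHLH101, one of the bHLH Ib factors that iron deficiency induces strongly, was above the floor only in GR-REV, with a signal of 197 with dexamethasone and 92.6 with mock in GR-REV, against 11.0 and 2.99 in wild type dexamethasone and wild type mock. The value in GR-REV mock was at the edge of the floor. Between the dexamethasone arrays GR-REV was at least 2.16-fold higher, and over both treatments limma gave an adjusted p of 0.533.

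The other bHLH factors of the list were closer together. ILR3 had signals of 1390 and 1280 in GR-REV dexamethasone and GR-REV mock, against 1563 and 1413 in wild type dexamethasone and wild type mock. bHLH104 and bHLH115 averaged 1.31-fold higher in GR-REV each, and bHLH34 was between 234 and 264 on all arrays. Adjusted p for these 4 genes was between 0.494 and 0.898 in limma. Of the BRUTUS-like ligases, BTSL2 (AT1G18910) was between 115 and 127, and the 2 probe sets of BTSL1 (AT1G74770) were at the floor except on 1 array.

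Not every iron-deficiency gene was on the same side. AT1G73120 had signals of 42.4 and 75.7 in GR-REV dexamethasone and GR-REV mock, both under the floor, against 178 and 309 in wild type dexamethasone and wild type mock. It was at least 1.95-fold lower in GR-REV between the dexamethasone arrays and at least 3.38-fold between the mock arrays, with an adjusted p of 0.108 in limma. Of the settings that tested it, only division by the median and treatment as a term called it lower. AT3G06890 had signals of 123 and 117 with dexamethasone and mock in GR-REV, against 216 and 125 in wild type. AT3G07720 was likewise highest in wild type dexamethasone, with 563 and 555 in GR-REV, against 770.1 and 562 in wild type. The median over the 8 probe sets of this list was 0 in the dexamethasone arrays and -0.06 in the mock arrays, GR-REV over wild type. Above 0 were 2 in the dexamethasone arrays and 1 in the mock arrays, and below 0 were 3 and 5.

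**Figure D3:**
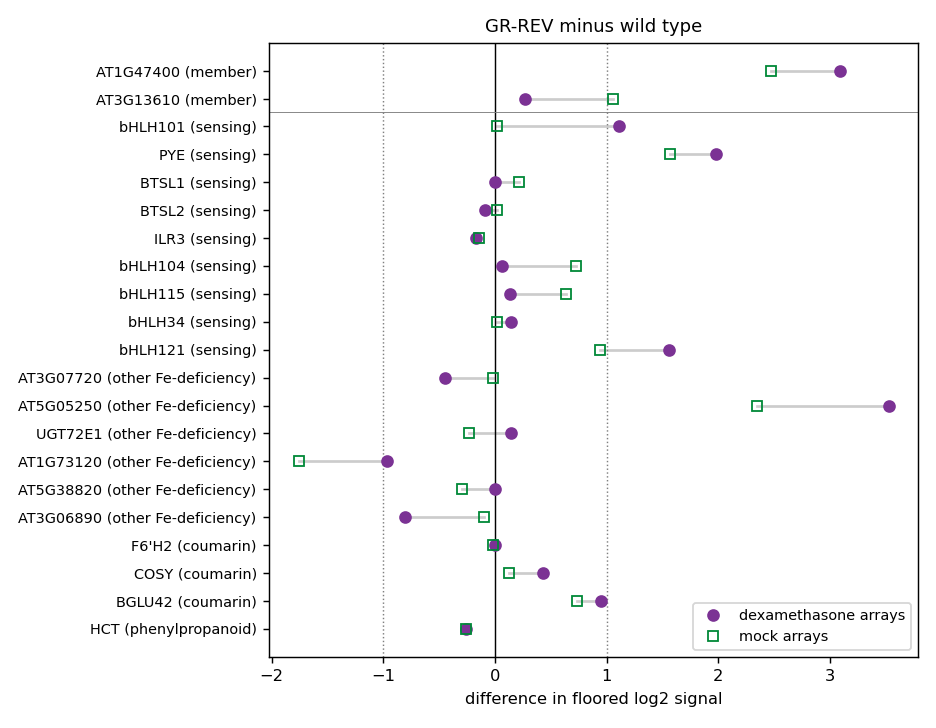
GR-REV minus wild type in floored log2 signal for the 2 members and the 19 probe sets of the iron and coumarin lists above the floor on at least 1 array, with filled circles for the dexamethasone arrays, open squares for the mock arrays and dotted lines at 2-fold. AT1G47400, PYE and AT5G05250 lie beyond 2-fold to the right in both, AT1G73120 lies to the left, and most others lie within 2-fold.

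Around AT3G13610, 4 of 8 listed genes of coumarin synthesis and export and 1 of 11 of phenylpropanoid supply had a probe set, and none of these was higher with dexamethasone in either pair above the floor. The nearest relative of F6'H1, F6'H2 (AT1G55290), had signals of 15.9 in GR-REV dexamethasone and 9.41 in wild type dexamethasone, against 97.8 in GR-REV mock and 98.9 in wild type mock, where it was only just above the floor. S8H (AT3G12900), which turns scopoletin into fraxetin, was at the floor on all arrays. COSY (AT1G28680), which closes the coumarin ring, had signals of 449 and 334 in GR-REV dexamethasone and wild type dexamethasone, against 594 and 543 in GR-REV mock and wild type mock. HCT, an acyltransferase of the phenylpropanoid pathway that supplies feruloyl-CoA, differed by 1.39-fold in the GR-REV pair and 1.38-fold in the wild type pair, lower with dexamethasone in each. Adjusted p for treatment was 0.389 for COSY and 0.343 for HCT in limma.

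BGLU42, a glucosidase that frees coumarins for secretion, differed by genotype more than by treatment. Its signal was 471 with dexamethasone and 496 with mock in GR-REV, against 243 in wild type dexamethasone and 298 in wild type mock. The arrays of the genotypes did not overlap, and the difference of 0.84 ± 0.22 (SE, 2 against 2 arrays) had an adjusted p of 0.151 in limma.

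In dexamethasone over mock limma called 0 of the 17 list probe sets tested, against 0.0428% of all, and 4 of 17 had an unadjusted p under 0.05, against 11.5% of all. In the GR-REV pair 1 of 24 was at least 2-fold higher, bHLH101, against 1.22% of all probe sets, and 0 were 2-fold lower, against 1.21%. In the wild type pair 0 were 2-fold higher, against 0.554%, and 1 was 2-fold lower, AT5G05250 at -1.58 on the log2 scale, against 1.68%. UGT72E1, a glucosyltransferase of phenylpropanoids on the iron-deficiency list, differed by 1.44-fold in the GR-REV pair and 1.87-fold in the wild type pair, lower with dexamethasone in each (adjusted p of 0.228 for treatment, limma). The median of the 24 was 0 in both pairs, where signals under the floor again give exactly 0. In each pair 7 of 24 were above 0 and 10 below. With a floor at the 25th percentile F6'H2 was also past 2-fold, at least 2.61-fold lower with dexamethasone in the GR-REV pair and at least 2.65-fold in the wild type pair, opposite to AT3G13610 and on signals next to background.

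**Figure D4:**
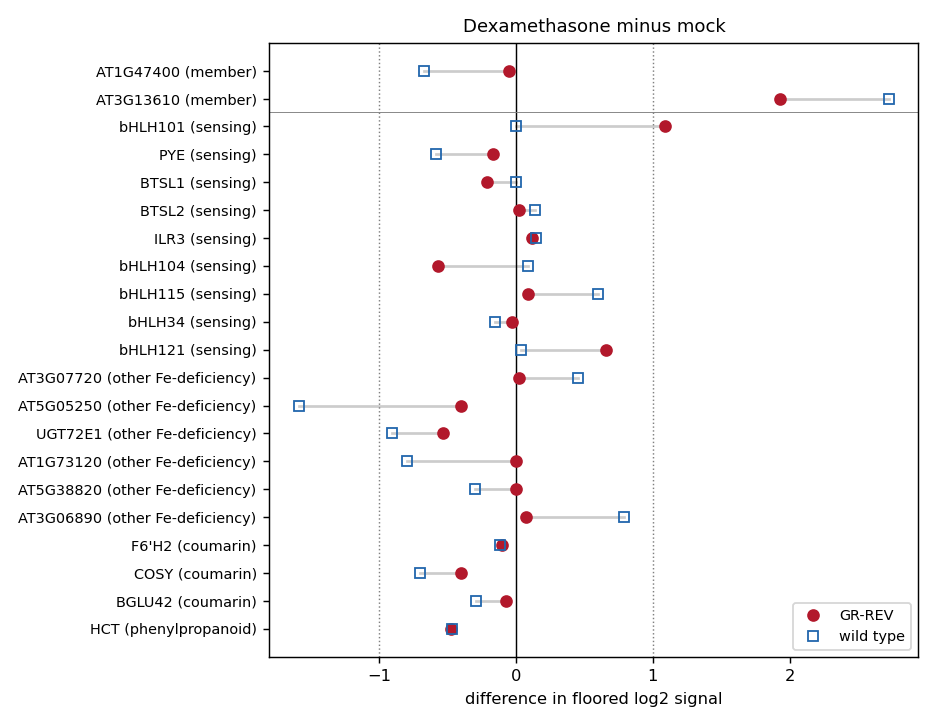
Dexamethasone minus mock in floored log2 signal for the 2 members and the same 19 probe sets, with filled circles for GR-REV, open squares for wild type and dotted lines at 2-fold. AT3G13610 is far to the right in both genotypes at 1.93 and 2.72, bHLH101 passes 2-fold in GR-REV and AT5G05250 passes it to the left in wild type.

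AT3G13610 and the coumarin genes are active mainly in roots, and the seedlings were taken whole. Of 11 root marker genes 3 had a probe set, and their summed signal was 15835 with dexamethasone and 16662 with mock in GR-REV, against 10259 in wild type dexamethasone and 14332 in wild type mock. Nearly all of it was PYK10, a root beta-glucosidase, while the root hair genes EXPA7 and EXPA18 were at or next to the floor. Of 11 green shoot markers only RCA, rubisco activase, had one, with signals of 18365 and 18574 in GR-REV dexamethasone and GR-REV mock, against 28804 and 20706 in wild type dexamethasone and wild type mock. PYK10 was thus lower and RCA higher in wild type dexamethasone, the array where AT1G47400, PYE and AT5G05250 were lowest. PYK10 was 1.40-fold lower with dexamethasone in wild type, while AT3G13610 was 6.61-fold higher. The part of tissue makeup in these results was not tested.

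Of the genes beside the members on the chromosome, the nearest measured neighbours of AT1G47400 differed less than it did between GR-REV and wild type. AT1G47380 differed by 0.38 on the log2 scale between the dexamethasone arrays and -0.64 between the mock arrays, and AT1G47410 by 0.14 and 0.41, and 4 further ones were at the floor on all arrays. For AT1G47395, the sister IMA gene next door, no probe set was listed, and whether the AT1G47400 probe set also binds its transcript was not tested. Of 6 neighbours of AT3G13610, 3 were at the floor on all arrays. Dexamethasone over mock was 0.43 in GR-REV and 0.05 in wild type for AT3G13560, and 0.14 and 0.19 for AT3G13580. AT3G13650 was at least 1.72-fold lower with dexamethasone in GR-REV, where it was under the floor, and 0.36 higher on the log2 scale in wild type.

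The genes most like each member were ranked by distance between log2 signals centred on their mean over the 4 arrays, among 6516 other probe sets with 1 gene that were above the floor throughout. Closest to AT1G47400 was AT5G45510 at a distance of 0.22, with signals of 2504 and 2680 in GR-REV dexamethasone and GR-REV mock, against 267 and 397 in wild type dexamethasone and wild type mock. AT4G02450, AT5G44580, AT2G33220 and AT3G18280 followed at 0.37, 0.46, 0.60 and 0.68. AT3G13610 had no neighbour as near. AT1G73600, a methyltransferase gene, was closest at 0.91, with signals of 1711 and 1118 in GR-REV dexamethasone and wild type dexamethasone, against 834 and 238 in GR-REV mock and wild type mock. AT4G22490 at 0.97, BUB3.1 at 1.29, XTH32 at 1.33 and AT5G01015 at 1.34 came next. With 4 arrays this likeness is a description.

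**Figure D5:**
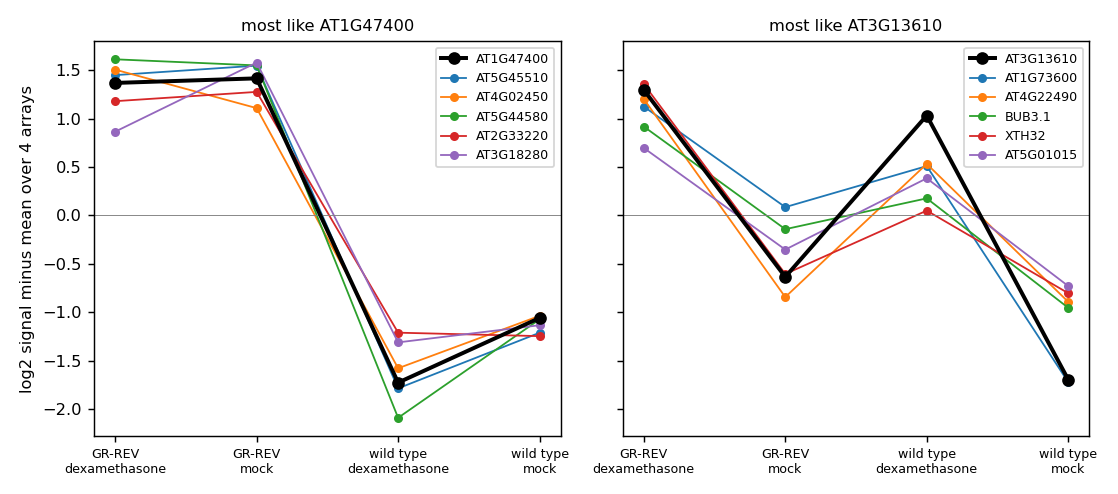
Log2 signal minus its mean over the 4 arrays for AT1G47400 (left, black) and AT3G13610 (right, black), each with the 5 genes closest to it in colour. The lines on the left are high on both GR-REV arrays and low on both wild type arrays, at distances of 0.22 to 0.68 from AT1G47400, and those on the right are higher on each dexamethasone array than on the mock array of the same genotype, at distances of 0.91 to 1.34 from AT3G13610.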

How the data were processed

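Total RNA from 4 flasks was hybridized to ATH1 arrays, 1 per group. The values used are intensities, deposited as 1 signal per probe set, that the authors made with MAS5, per the submitters' processing notes; its version is not given in the sources used here. Equal trimmed means showed that the arrays had been scaled, so none was added. Of 22810 probe sets, 64 controls were left out. Signals below the 40th percentile of all signals (91.4) were set to it before log2. A fold against a signal under the floor is given as "at least".

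Genes came from the platform annotation, updated through the RefSeq table of TAIR10.1: 13513 probe sets had 1 gene, 503 several and 8730 none listed. No sequences were used here.

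Genotype (2 against 2 arrays) and treatment (genotype as a term, 1 array per cell) were tested with the lmFit and eBayes functions of limma 3.58.1 under R 4.3.3, the prior variance following intensity, on the 14034 probe sets that exceeded the floor on 2 or more arrays, with Benjamini-Hochberg adjustment over all of them. The labels name 1 flask per group, so p-values measure the spread between these flasks only. limma moderates the spread of each probe set toward that of all tested ones. Each SE given is thus not the gene's own spread alone. For genotype the spread holds any response to treatment, and for treatment it holds how far the genotypes' responses differ. The script was tested on simulated data. The number of arrays limits the precision.

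Named are the members, list genes with a probe set of 1 gene (those apart first), the 5 most similar genes each and 3 measured neighbours on either side. Members and lists were chosen with earlier results of these data known. The alternatives were other floors, the floor value added, quantile or median scaling, other limma fits, the source names' treatments, a 3-fold rule and leaving out each array.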

Additional observations from a re-analysis of the deposited data

How the results depend on the processing

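AT1G47400 in GR-REV over wild type kept its direction in the 11 alternatives run. With the nearest arrays 5.37-fold apart these could hardly reverse it, so they are no test of the direction. The difference was 2.45 with the floor value added to every signal and 2.45 to 3.12 with each array left out in turn. AT3G13610 in GR-REV over wild type was -0.70 without wild type mock and -0.30 without GR-REV dexamethasone, against 2.02 without wild type dexamethasone, because fewer arrays leave the treatments unequal between genotypes. Dexamethasone over mock for AT3G13610 was 1.28 in wild type and 1.41 over both genotypes with a floor at the 60th percentile, and 1.98 and 1.77 with the floor value added. With the treatments of the source names it was 0.40 over both genotypes and -1.93 in GR-REV, where AT1G47400 was 0.0472. The 0 list probe sets called for genotype became 3 with division by the median, 1 with a floor at the 60th percentile, 2 with the floor value added, 1 without the intensity trend, 1 with quantile normalization, 4 with treatment as a term and 0 to 3 with each array left out. The 0 called for treatment became 1 with division by the median. The 1 probe set past 2-fold in the GR-REV pair became 3 with a floor at the 25th percentile and 0 with a floor at the 60th, the floor value added or a 3-fold rule; the 1 in the wild type pair became 2 at the 25th percentile and with quantile normalization, and 0 at the 60th and with a 3-fold rule. The 2 probe sets 2-fold apart between every GR-REV and wild type array became 4 at the 25th percentile and 1 at the 60th. They became 1 with a 3-fold rule and 2 to 4 with an array left out. Quantile normalization gave 3, as did division by the median. This count and its alternatives were chosen after seeing the data. Over all probe sets, the 249 limma calls for genotype became 427 with division by the median, 418 with the floor value added, 997 with treatment as a term, 114 without wild type mock and 81 without wild type dexamethasone. The 6 for treatment became 0 to 418. The fit with treatment as a term compares the genotypes within each treatment, and the labels give no replicate numbers to pair on.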
